A study of Rattus norvegicus with 6 samples.

Results

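The TNF ligand and receptor superfamilies were followed in 6 RNA-seq libraries of rat myocardial tissue. Members were the rows of the deposited gene table whose symbol begins with Tnfsf or Tnfrsf and a number, together with Tnf, Lta, Ltb, Ltbr, Fas, Faslg, Cd27, Cd40, Cd40lg, Cd70 and Ngfr. This gave 43 of the table's 33509 rows, which carry 40 symbols, 17 of them ligands and 23 receptors. Both groups were Sprague-Dawley rats with a model of acute myocardial infarction. The MOD group (3 libraries) had the model alone, and the XHT group (3 libraries) had the model with XHT, which the series title ties to the preparation Xinhuitong. The labels give no dose, time after infarction, age, sampled part of the heart or number of animals per library, so p-values measure the spread between these libraries, which may be technical. Values of 3 libraries are given in the order of their numbers. Libraries of uninfarcted heart were not analysed here, so every difference below is between hearts of the infarction model with and without the preparation.

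TNF ligands are mostly trimeric proteins made as membrane-bound forms that proteases can release, and each binds 1 or more receptors of the matching superfamily. Receptors with a death domain, such as TNF receptor 1 and Fas, can recruit TRADD or FADD and caspase 8. Many of the others bind TRAF adaptors and activate the transcription factor NF-kB, which TNF receptor 1 can activate as well. Some receptors act as decoys that hold a ligand without signalling. In the injured heart TNF is known as an early inflammatory cytokine made by macrophages and stressed muscle cells, and several other ligands serve as costimulators of lymphocytes.

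Total counts ranged from 16550007 to 17724689 per library, and 14488 genes had enough counts to be tested. The libraries did not separate evenly: along the leading principal component (74.4% of the variance) MOD 3 lay at -19.8, between MOD 1 and MOD 2 (-98.5 and -105.7) and the XHT libraries (46.1 to 90.4). Cardiomyocyte markers were present in every library, with 9 of the 10 listed markers in the table. Their summed level was 2170, 1690 and 19122 CPM in MOD, where MOD 3 stood apart, and 29995 to 40487 CPM in XHT (CPM, counts relative to library size after TMM scaling). All 9 log2 fold changes were positive, but 1 of 9 passed the test as higher (11.1%, beside 12.4% of all tested genes), and the groups overlapped for 2. Fibroblast markers summed to 53857, 61680 and 22868 CPM in MOD and 1787 to 4557 in XHT, and 8 of 10 passed the test as lower. Macrophage markers summed to 3510, 2901 and 1943 CPM in MOD and 558 to 796 in XHT, and 8 of 10 passed as lower. T cell markers summed to 82.0 to 89.4 CPM in MOD and 43.8 to 56.6 in XHT, with 3 of 10 tested markers lower (Cd4, Cd8a and Cd8b) and 5 of 10 log2 fold changes positive (median -0.21). Cd4, which macrophages of the rat also carry, made up most of that sum, with means of 56.6 CPM in MOD and 35.2 in XHT. B and plasma cell markers summed to 3.16 to 3.69 and 4.22 to 6.12 CPM, and neutrophil markers to 2.78 to 44.8 and 14.2 to 129 CPM, in MOD and XHT. Only 1 of the 8 B and plasma cell markers was tested, which passed as higher. Of 5 tested neutrophil markers 0 were called, although all 5 log2 fold changes were positive (median 2.19), with overlapping groups for 4. No listed marker in the table was at 0 in all 6 libraries. NK cell markers summed to 6.32 to 20.7 and 10.2 to 14.0 CPM, with 0 of 5 tested markers called. The fibroblast and macrophage markers moved in the direction of most family members below, as did 6 of 7 smooth muscle and pericyte markers. The cardiomyocyte and the tested neutrophil markers had log2 fold changes in the opposite direction, most of them not called. The part of these markers in the family results was not tested. In bulk tissue, fewer cells of a type and less RNA per cell cannot be told apart.

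Of the 27 members with enough counts to be tested, 10 were lower in XHT, which is 37.0% of them, and 0 were higher. The background over all tested genes was 16.1% lower and 12.4% higher, by edgeR's quasi-likelihood test at a Benjamini-Hochberg adjusted p under 0.05. The 10 were the ligands Tnfsf8, Tnfsf18, Tnfsf13, Tnfsf13b and Tnfsf12 and the receptors Ngfr, Tnfrsf19, Cd40, Tnfrsf10b and Ltbr. The median log2 fold change (XHT minus MOD) was -0.82 over the tested members and -0.02 over all tested genes. At an unadjusted p under 0.05, 0 members were higher and 14 lower. The share of all genes at that threshold was not computed, so these counts have no background. DESeq2's Wald test called 0 higher and 12 lower of the 32 members to which it gave an adjusted p. Over all 16413 genes with an adjusted p, it called 2663 higher and 2722 lower (16.6% lower). All 3 XHT values lay below all 3 MOD values for 15 tested members and above them for 0, where the background over all tested genes was 26.6% below and 24.7% above. Of the tested members 24 had a negative log2 fold change, beside 51.1% of all tested genes. Single libraries decided many calls, of members and of all genes alike. The members called lower numbered 0 without XHT 1 (background 0.0267%), 1 without XHT 3 (Tnfsf18, background 1.92%), 2 without MOD 1 (2.55%) and 2 without MOD 2 (3.87%). They numbered 14 without MOD 3 (22.9%) and 9 without XHT 2 (14.2%). These fits tested 28 or 29 members. Scaling to total counts moved the median of all genes to -0.42, called 16 of the 27 members lower (background 29.8%; added were Fas, Tnfrsf1a, Tnfrsf11a, Tnfrsf11b, Tnfrsf21 and Tnfrsf25), and turned the split over all genes from 1792 higher and 2336 lower into 925 higher and 4320 lower.

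**Figure D1:**
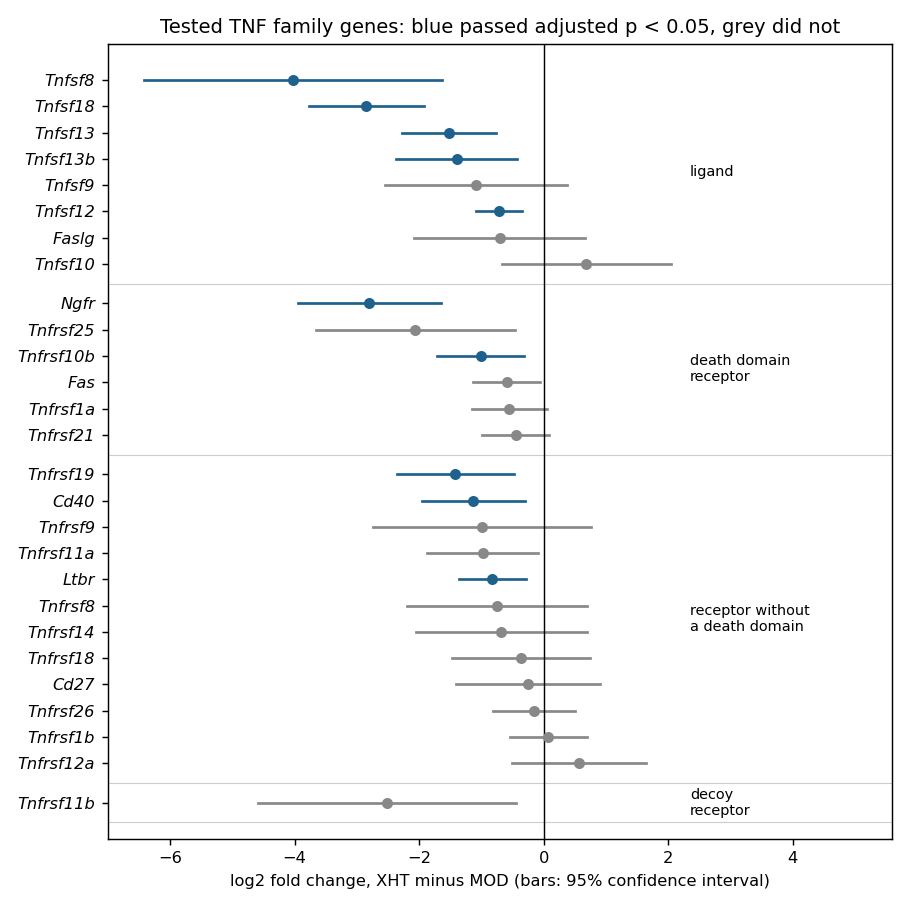
Log2 fold change (XHT minus MOD, x axis) of the 27 tested members with 95% confidence intervals, ordered within ligands, death domain receptors, other receptors and the decoy. The 10 members past the threshold (blue) all lie left of 0, and only Tnfsf10, Tnfrsf12a and Tnfrsf1b lie right of it.

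Promoter sequences are printed for 3 of the 10 members that fell, those in which a searched motif was found. RefSeq promoter sequences (build GRCr8) matched 29 of the 40 symbols, among them 6 of the 10 that fell. The 250 bases before the annotated start were searched on both strands for the NF-kB consensus motif, the AP-1 motif TGANTCA, the SP1 motif GGGCGG and the TATA motif TATAAA. Among the 6, the NF-kB consensus was found in 0, AP-1 in 0, SP1 in 2 and TATA in 1. Of all 33469 promoters, 6.33% held the NF-kB consensus, 6.34% AP-1, 30.5% SP1 and 12.9% TATA, and of the 29 member promoters 5, 3, 15 and 7 did. The 5 with the NF-kB consensus were Fas, Tnfrsf8, Tnfsf14, Lta and Ltb. With 6 promoters of members that fell and 29 in all, no difference from the shares of all promoters is read. Bases further from the start were not searched. The 3 windows that held a motif among the members that fell are printed 5′ to 3′ with the match in capitals, which is the TATA motif for Tnfsf18 (chr13:76366603-76366852, plus strand) and the SP1 motif on the opposite strand for Tnfsf13 (chr10:54901816-54902065, minus strand) and for Ltbr (chr4:159801517-159801766, minus strand, with 2 matches).
Tnfsf18: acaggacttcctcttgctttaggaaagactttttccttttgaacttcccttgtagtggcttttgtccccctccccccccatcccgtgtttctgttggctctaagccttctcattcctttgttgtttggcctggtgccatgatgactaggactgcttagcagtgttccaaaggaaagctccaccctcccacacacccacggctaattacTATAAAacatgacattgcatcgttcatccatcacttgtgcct
Tnfsf13: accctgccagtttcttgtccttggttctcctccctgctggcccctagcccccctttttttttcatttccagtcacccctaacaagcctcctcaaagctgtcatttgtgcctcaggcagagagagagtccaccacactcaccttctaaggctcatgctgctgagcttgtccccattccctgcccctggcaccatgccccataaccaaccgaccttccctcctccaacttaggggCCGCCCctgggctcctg
Ltbr: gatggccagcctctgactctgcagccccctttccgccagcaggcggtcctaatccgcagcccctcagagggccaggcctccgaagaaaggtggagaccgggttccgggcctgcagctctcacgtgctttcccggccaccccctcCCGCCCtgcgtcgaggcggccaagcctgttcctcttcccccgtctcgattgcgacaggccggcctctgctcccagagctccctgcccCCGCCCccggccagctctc
The Ltbr window had a GC content of 70.4%, that of Tnfsf13 57.6% and that of Tnfsf18 48.0%.

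Per unit of gene length, 4 members led the family. In the deposited FPKM (fragments per length of gene and depth of library, with the authors' scaling between libraries), the mean over the 6 libraries was 55.0 for Tnfrsf1a, 49.0 for Tnfsf12, 45.3 for Ltbr and 43.5 for Tnfrsf12a. A further 5 symbols lay between 5 and 40 FPKM, 10 between 1 and 5, and 21 below 1. The ranges of these first 4 overlapped, so their order is not resolved. The next member, Tnfsf10, averaged 14.1 FPKM and reached 23.1 in XHT 1, above the lowest Tnfrsf12a value of 16.7 in MOD 3. Summed over all ligands, FPKM stood at 101, 91.5 and 99.7 in MOD against 64.1, 74.2 and 55.1 in XHT, without overlap. A two-sided exact permutation test of this ligand sum gave p = 0.1, the smallest that 3 against 3 can give. Adjusted over 14 comparisons, the p of this test was 0.28, so the ligand sum did not pass. Summed over all receptors, it was 210, 283 and 156 in MOD against 133, 173 and 188 in XHT, with overlap. Tnfsf12 alone held 62.0% ± 1.71 of the summed ligand FPKM in MOD and 59.2% ± 8.94 in XHT.

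**Figure D2:**
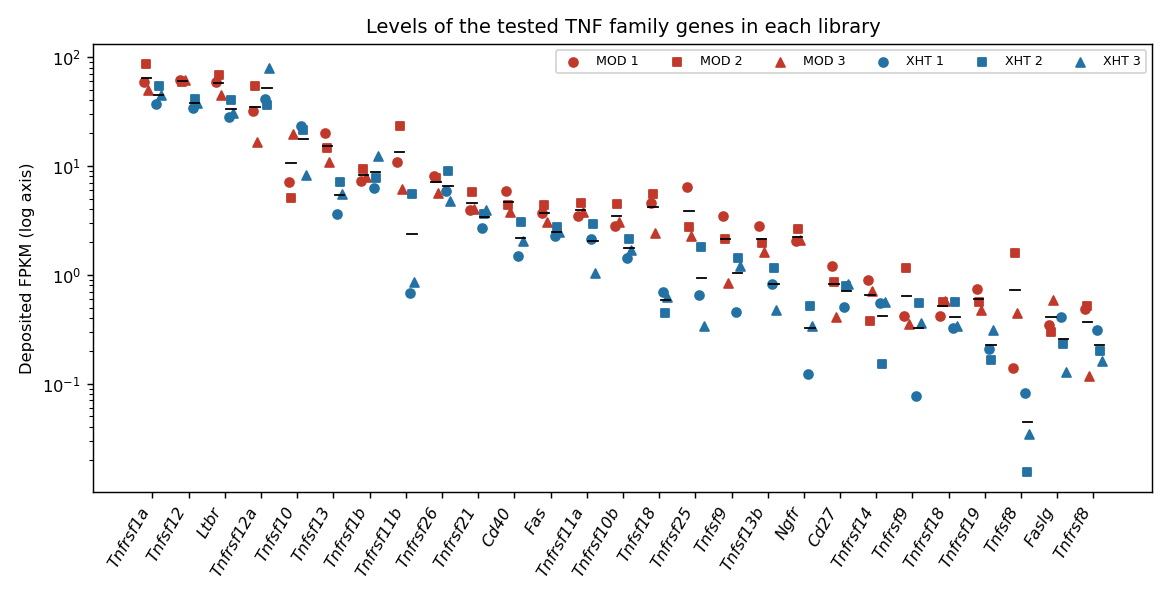
Deposited FPKM (log axis) of the 27 tested members in each library, ordered by mean, with MOD in red, XHT in blue, a symbol shape per replicate number and a bar at each group mean. Tnfrsf1a, Tnfsf12, Ltbr and Tnfrsf12a lead, and most other members lie below 10 FPKM.

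The name-giving cytokine was nearly absent from the counts. Tnf has 2 rows on chromosome 20, at 4855829 to 4858447 and 5189390 to 5192000 (the sources used here name no build for the table's coordinates), and the copies together held 2 counts, 1 in MOD 2 and 1 in XHT 2. Ltb, a subunit of the membrane lymphotoxin heterotrimer, also has 2 rows there, with 7, 1 and 15 counts in MOD against 0, 1 and 0 in XHT under the identifier with more counts and 2, 1 and 2 against 0, 0 and 1 under the other. Tnfsf11 (RANKL, the osteoclast differentiation factor) has 2 rows on chromosome 15 with 4 counts in all, each of them in MOD 2. Reads that map to both copies of a gene can be dropped or split by counting, for which the sources used here name no settings, so the counts of Tnf, Ltb and Tnfsf11 are uncertain. Lta, listed once, had 4 counts. Counting error alone lets a listed 0 stand for as many as 3 counts, or 0.148 to 0.204 CPM depending on the library.

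Among the ligands, 5 of the 8 tested fell (62.5%, beside 16.1% of all tested genes) and 0 rose (beside 12.4%), with a median log2 fold change of -1.24 beside -0.02 over all tested genes. With only 8 genes, no difference from the background is read from these counts. Tnfsf12 (TWEAK, the ligand of Fn14) stood at 97.1, 91.5 and 97.3 CPM in MOD and at 52.3, 63.9 and 58.5 CPM in XHT. Every XHT library lay below every MOD library, and the log2 fold change was -0.71 ± 0.16 (SE), a level 1.64-fold lower. Tnfsf13 (APRIL, a survival factor of B and plasma cells) lies 827 bases from Tnfsf12 on the same strand of chromosome 10, from 56286887 to 56289952 in the table's coordinates. It stood at 35.4, 25.8 and 19.5 CPM in MOD and 6.25, 12.3 and 9.46 in XHT, again without overlap, with a log2 fold change of -1.53 ± 0.32. Tnfsf13b (BAFF, the other B cell survival factor of this pair) stood at 6.22, 4.30 and 3.60 CPM in MOD and 1.80, 2.51 and 1.02 in XHT, a log2 fold change of -1.40 ± 0.42. The adjusted p by edgeR's quasi-likelihood test was 0.0214 for Tnfsf12, 0.0188 for Tnfsf13 and 0.0440 for Tnfsf13b. Each of the 3 kept its call without MOD 3 or XHT 2 and lost it without each of the other 4 libraries, with adjusted p-values over all alternatives of up to 0.0951, 0.0704 and 0.145.

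Tnfsf18 (GITR ligand, a costimulator carried by endothelial and antigen-presenting cells) showed the lowest adjusted p of the family. It stood at 9.75, 11.8 and 5.20 CPM in MOD and 1.46, 0.942 and 1.29 in XHT, a mean 7.22-fold lower in XHT with a log2 fold change of -2.85 ± 0.40 (adjusted p = 0.0105 by edgeR's quasi-likelihood test). The lowest MOD library, MOD 3, lay above the highest XHT library by more than the whole XHT range. It was also the only member called in 5 of the 6 fits that left out 1 library, and without XHT 1 its adjusted p was 0.0549. Over all alternatives its log2 fold change ran from -3.26 to -2.59.

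Tnfsf8 (CD30 ligand, carried by activated lymphocytes) had the largest fold change and the widest error. Its counts were 11, 132 and 36 in MOD against 5, 1 and 2 in XHT, so MOD 2 carried most of the MOD counts. The log2 fold change was -4.03 ± 1.02, and edgeR's quasi-likelihood test gave an adjusted p of 0.0287. Without MOD 2 it was -2.74, and the call was lost (adjusted p = 0.0852); it was also lost without XHT 1, XHT 2 or XHT 3 and with the replicate number as a block (0.0519), with adjusted p-values of up to 0.103 over all alternatives.

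Tnfsf10 (TRAIL, a death-inducing ligand also made by endothelium) had libraries that did not follow the groups. It stood at 28.2, 19.8 and 78.7 CPM in MOD and 89.5, 82.2 and 31.6 in XHT. MOD 3 thus sat with XHT 1 and XHT 2, and XHT 3 with MOD 1 and MOD 2. The log2 fold change was 0.68 with a 95% interval of -0.67 to 2.04 (adjusted p = 0.386 by edgeR's quasi-likelihood test). Without MOD 3 it was 1.51 and passed as higher (adjusted p = 0.0369, with 23.3% of all genes higher in that fit), the only member that did so in any alternative; over the alternatives the adjusted p reached 0.698. Of the other tested ligands, Tnfsf9 (4-1BB ligand) averaged 2.88 ± 1.78 CPM in MOD and 1.35 ± 0.669 in XHT, in both cases SD with n = 3. Faslg (Fas ligand, which kills Fas-bearing cells) stood at 0.580, 0.494 and 0.977 CPM in MOD and 0.665, 0.377 and 0.204 in XHT. Both genes had overlapping groups, and Tnfsf9 was called lower without MOD 3 (adjusted p = 0.0493 by edgeR's quasi-likelihood test, up to 0.579 over all alternatives).

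The remaining ligands had too few counts to test. Tnfsf4 (OX40 ligand) had 8, 7 and 5 counts in MOD and 0, 1 and 0 in XHT, and Cd70 had 1, 9 and 2 in MOD and 0 in each XHT library. Cd40lg, the T cell ligand of CD40, had 0, 1 and 0 counts in MOD against 2, 2 and 8 in XHT. Tnfsf14 (LIGHT) had 8, 7 and 4 counts in MOD and 11, 14 and 2 in XHT, and Tnfsf15 (TL1A) 2, 1 and 10 and 1, 2 and 3. These counts are given as values only.

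**Figure D3:**
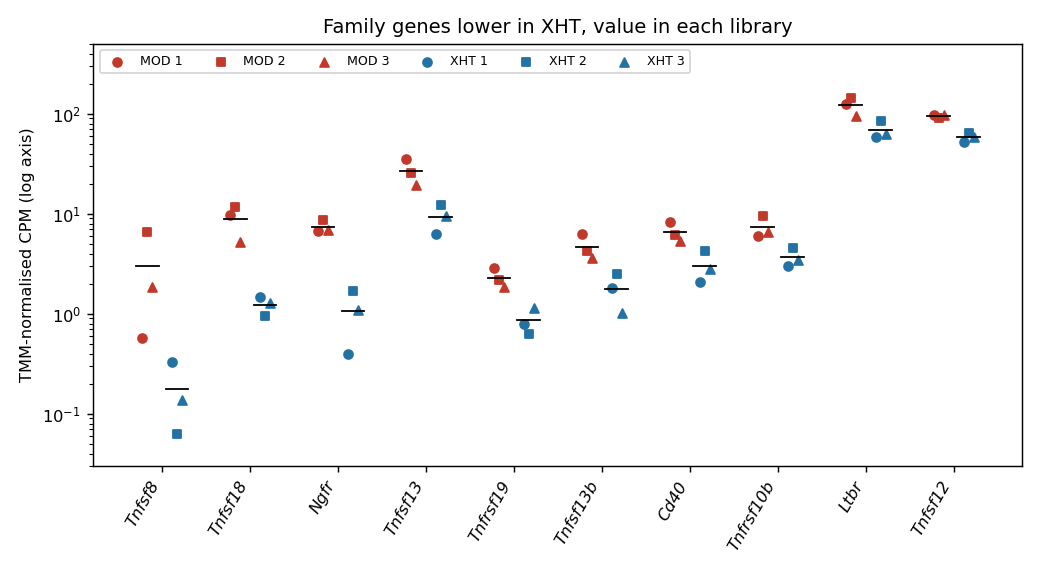
TMM-normalised CPM (log axis) in each library of the 10 members that fell, with MOD in red, XHT in blue, a symbol shape per replicate number and a bar at each group mean. For each gene the 3 XHT points lie below the 3 MOD points, and Tnfsf8 shows the widest spread within MOD.

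Of the 6 death domain receptors, each tested, 2 fell (33.3%, beside 16.1% of all tested genes) and 0 rose, and each log2 fold change was negative (median -0.80). These 6 genes are too few to read a difference from the background. Ngfr, the low-affinity neurotrophin receptor p75 of nerve and mesenchymal cells, stood at 6.80, 8.64 and 6.95 CPM in MOD and 0.399, 1.70 and 1.09 in XHT. The mean was 7.03-fold lower in XHT, with no overlap and a log2 fold change of -2.80 ± 0.49 (adjusted p = 0.0136 by edgeR's quasi-likelihood test). Without MOD 1, XHT 1 or XHT 3 the call was lost, with adjusted p-values of 0.0503, 0.0549 and 0.0604, the last being the highest over all alternatives. The listed Schwann and nerve markers summed to 29.9 to 64.8 CPM in MOD and 29.6 to 49.8 CPM in XHT, with 0 of 6 lower and 1 higher (Cdh19). Smooth muscle and pericyte markers summed to 1495 to 2129 and 944 to 1325 CPM, with 3 of 7 lower. Fibroblast markers summed to 22868 to 61680 and 1787 to 4557 CPM, with 8 of 10 lower. The part of these 3 lists in the Ngfr result was not tested.

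Tnfrsf10b, the death receptor for TRAIL, stood at 6.06, 9.48 and 6.64 CPM in MOD and 2.99, 4.52 and 3.47 in XHT. The groups did not overlap, and the log2 fold change was -1.01 ± 0.30 (adjusted p = 0.0432 by edgeR's quasi-likelihood test). The call held without MOD 3 and was lost without each of the other 5 libraries and with no filter on low counts (adjusted p = 0.0548), with adjusted p-values of up to 0.157 over all alternatives.

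Tnfrsf1a, TNF receptor 1, stood at 131, 186 and 110 CPM in MOD and 79.8, 116 and 94.4 in XHT. XHT 2 lay above MOD 3, and the log2 fold change was -0.56 with a 95% interval of -1.16 to 0.05 (adjusted p = 0.134). Without MOD 3 it was called lower (adjusted p = 0.0427), with adjusted p-values of 0.0385 to 0.410 over all alternatives. Fas, the receptor of Fas ligand, stood at 9.64, 11.3 and 7.97 CPM in MOD and 5.78, 7.03 and 6.26 in XHT, and Tnfrsf21 (death receptor 6) averaged 20.4 ± 4.46 and 14.9 ± 2.65 CPM (SD, n = 3 each). In both genes the groups did not overlap, but the adjusted p by edgeR's quasi-likelihood test was 0.0886 and 0.167; without MOD 3 Fas was called lower (0.0455, with 0.0257 to 0.286 over all alternatives). Tnfrsf25 (death receptor 3, the TL1A receptor) stood at 10.9, 4.54 and 3.81 CPM in MOD and 1.06, 2.95 and 0.544 in XHT, a log2 fold change of -2.06 ± 0.68 with an adjusted p of 0.0579 that was 0.0289 without MOD 3, 0.0285 without XHT 2, 0.0478 with the replicate block, 0.0125 by DESeq2 and up to 0.186 over all alternatives.

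Of 12 tested receptors without a death domain, 3 fell (25%, beside 16.1% of all tested genes) and 0 rose, with a median log2 fold change of -0.72. With so few genes, no difference from the background is read from these counts. Ltbr, the lymphotoxin beta receptor of stromal and myeloid cells, stood at 126, 145 and 95.3 CPM in MOD and 59.4, 84.4 and 63.4 in XHT. All XHT values lay below all MOD values, and the log2 fold change was -0.82 ± 0.23. Cd40, the receptor through which T cells activate antigen-presenting cells, stood at 8.38, 6.08 and 5.40 CPM in MOD and 2.06, 4.21 and 2.79 in XHT, a log2 fold change of -1.13 ± 0.35. Tnfrsf19 (TROY) was scarcer, at 2.90, 2.17 and 1.85 CPM in MOD and 0.798, 0.628 and 1.16 in XHT, a log2 fold change of -1.42 ± 0.40. The adjusted p by edgeR's quasi-likelihood test was 0.0376 for Ltbr, 0.0496 for Cd40 and 0.0385 for Tnfrsf19. Ltbr and Cd40 were called without MOD 3 or XHT 2 and Tnfrsf19 without MOD 3, and none of these 3 was called without any other library, with adjusted p-values of up to 0.133, 0.162 and 0.135 over all alternatives. The call of Tnfrsf19 was also lost with no filter on low counts and with the replicate number as a block (adjusted p = 0.0633). That of Cd40 was lost with no filter, with the block (adjusted p = 0.0692), with DESeq2 size factors (0.0516) and with edgeR's legacy fit (0.0544). No filter called 7 of 41 members lower, beside 10.7% of all genes. The block, the size factors and the legacy fit called 9 of 27 each, beside 15.9%, 15.7% and 15.4%.

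Tnfrsf12a (Fn14, the TWEAK receptor, which injury is known to induce) was not called, whereas its ligand fell; the difference between them was not tested in the count model. Tnfrsf12a stood at 32.0, 53.6 and 16.6 CPM in MOD and 40.2, 35.4 and 75.9 in XHT, with overlapping groups and a log2 fold change of 0.57 with a 95% interval of -0.51 to 1.64 (adjusted p = 0.363 by edgeR's quasi-likelihood test). As a share of the summed receptor FPKM it was 15.3%, 19.3% and 10.7% in MOD and 31.1%, 21.1% and 42.3% in XHT, so all XHT shares lay above all MOD shares. The share of Ltbr was 28.1%, 24.3% and 28.6% in MOD and 21.3%, 23.3% and 16.4% in XHT, also without overlap. The ratio of Tnfsf12 to Tnfrsf12a in FPKM was 1.90, 1.07 and 3.67 in MOD and 0.815, 1.13 and 0.482 in XHT, where XHT 2 lay above MOD 2. In a two-sided exact permutation test the shares of Tnfrsf12a and of Ltbr each gave p = 0.1, the smallest that 3 against 3 can give, and the ratio gave p = 0.2. These were 3 of 14 such comparisons of shares, sums and ratios, and each of the 3 had an adjusted p of 0.28, so none passed.

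Tnfrsf1b, TNF receptor 2 of immune and endothelial cells, stood at 21.9, 27.4 and 23.7 CPM in MOD and 18.4, 22.6 and 35.8 in XHT. Its log2 fold change of 0.07 had a 95% interval of -0.55 to 0.69 and became -0.34 with scaling to total counts and -0.23 without XHT 3. The ratio of Tnfrsf1a to Tnfrsf1b in FPKM was 8.08, 9.21 and 6.28 in MOD and 5.87, 6.94 and 3.58 in XHT, where XHT 2 lay above MOD 3 (two-sided exact permutation p = 0.2, adjusted p = 0.28). Tnfrsf26 averaged 17.9 ± 3.32 and 16.1 ± 5.48 CPM. The lymphocyte costimulatory receptors Cd27, Tnfrsf14, Tnfrsf8, Tnfrsf9 and Tnfrsf18 averaged between 0.499 and 1.39 CPM in either group, and their groups overlapped. Tnfrsf4 (OX40) and the B cell receptors Tnfrsf13c, Tnfrsf17 and Tnfrsf13b were not tested; the last 3, the receptors of BAFF and APRIL, had 16, 12 and 11 counts over the 6 libraries.

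The osteoprotegerin system showed large differences that did not pass the test. Tnfrsf11b (osteoprotegerin, the soluble decoy for RANKL and TRAIL) stood at 32.3, 68.5 and 18.4 CPM in MOD and 1.99, 16.3 and 2.45 in XHT. XHT 2 lay just below MOD 3, far from XHT 1 and XHT 3, and the log2 fold change was -2.52 ± 0.88 (adjusted p = 0.0682 by edgeR's quasi-likelihood test). Without XHT 2 it was called lower at -4.14 (adjusted p = 0.0146), and so it was with the replicate block (0.00995) and by DESeq2 (0.00758); over all alternatives the adjusted p ran from 0.00758 to 0.187. In the authors' deposited table the same gene had an adjusted p of 0.00783. Tnfrsf11a (RANK, the signalling receptor for RANKL) stood at 10.3, 13.2 and 11.1 CPM in MOD and 6.18, 8.48 and 2.93 in XHT, without overlap (log2 fold change -0.98 ± 0.38, adjusted p = 0.0888 by edgeR's quasi-likelihood test). The ratio of Tnfrsf11b to Tnfrsf11a in FPKM was 3.09, 5.13 and 1.63 in MOD and 0.318, 1.90 and 0.826 in XHT, where XHT 2 lay above MOD 3 (two-sided exact permutation p = 0.2, adjusted p = 0.28).

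**Figure D4:**
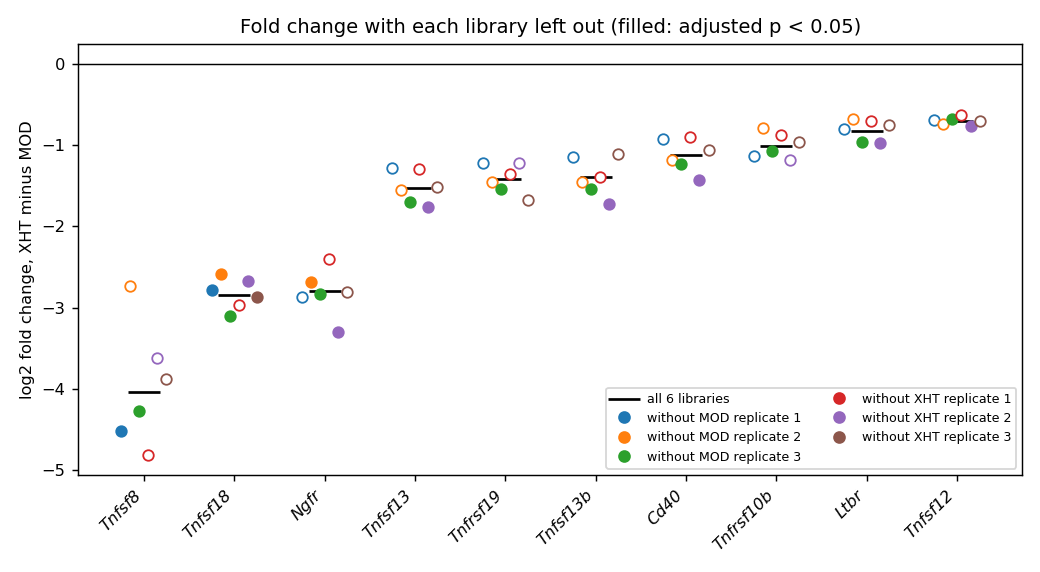
Log2 fold change (XHT minus MOD, y axis) of the 10 members that fell, with all 6 libraries (bar) and with each library left out (points, filled where the adjusted p was under 0.05). The fold changes stay below 0 in each fit, whereas only Tnfsf18 is filled in 5 of 6.

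Downstream of the receptors, a list of 43 genes for adaptors, kinases, ubiquitin enzymes, NF-kB factors and sheddases was tested in full, and 5 fell and 5 rose. Each is 11.6% of the list, no more than the 16.1% lower and 12.4% higher of all tested genes. The median log2 fold change of the list was -0.05. The genes that fell were Tradd, Ripk3, Mlkl, Birc3 and Nfkbie. Tradd, the adaptor of TNF receptor 1, averaged 25.9 ± 7.76 CPM in MOD and 8.03 ± 3.34 in XHT. Ripk3, the kinase of necroptosis, averaged 16.8 ± 6.19 and 5.96 ± 3.01 CPM, and Mlkl, its membrane-permeabilising substrate, 20.4 ± 3.87 and 5.95 ± 3.07 CPM (SD, n = 3 each). Their log2 fold changes were -1.69 ± 0.36, -1.50 ± 0.43 and -1.77 ± 0.42, and the XHT libraries lay below the MOD libraries in each. Birc3 (cIAP2, a ubiquitin ligase of the receptor complex) fell from 8.44 ± 0.774 to 4.22 ± 1.02 CPM, and Nfkbie, an NF-kB inhibitor, by 1.44 on the log2 scale.

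The 5 that rose included Cflar (cFLIP, the inhibitor of caspase 8), which went from 17.4 ± 6.04 CPM in MOD to 37.5 ± 2.32 in XHT without overlap. Traf6, an adaptor for CD40, RANK and Toll-like receptors, averaged 3.05 ± 0.237 CPM in MOD and 11.2 ± 6.77 in XHT, with XHT 3 at 19.0. Map3k5 (ASK1, a stress kinase) rose from 15.0 ± 1.40 to 35.5 ± 8.31 CPM, Otulin, a linear ubiquitin hydrolase, from 7.19 ± 1.86 to 16.4 ± 3.34, and Nfkbib, another NF-kB inhibitor, from 11.3 ± 2.81 to 20.9 ± 3.92 CPM (SD, n = 3 each). The adjusted p by edgeR's quasi-likelihood test ran from 0.0131 for Map3k5 to 0.0399 for Ripk3. Of the signalling list 0 genes were called without MOD 1, MOD 2, XHT 1 or XHT 3. In these fits 2.55%, 3.87%, 0.0267% and 1.92% of all genes were lower, and 128, 227, 4 and 148 genes were higher. Of the list, 10 rose and 7 fell without MOD 3 (beside 23.3% and 22.9% of all genes), and 5 rose and 8 fell without XHT 2 (beside 9.81% and 14.2%). Scaling to total counts called 3 higher and 14 lower, beside 6.38% and 29.8% of all genes.

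Several central genes of the route, Nfkb1, Ripk1, Traf1, Traf2, Tnfaip3, Nfkbia and Adam17, did not pass the test. Nfkb1 averaged 81.7 ± 12.9 CPM in MOD and 87.0 ± 4.59 in XHT, Ripk1 (the receptor-bound kinase) 38.6 ± 2.58 and 32.6 ± 3.88, and Traf2 (the main TRAF of TNF receptors) 23.0 ± 0.748 and 19.0 ± 3.47 CPM. Traf1 averaged 4.57 ± 0.587 and 3.28 ± 1.88 CPM, and Tnfaip3 (A20, a brake on NF-kB) 5.69 ± 2.80 and 6.96 ± 2.39 (SD, n = 3 each). Nfkbia, the inhibitor that NF-kB itself induces, spread from 71.1 to 249 CPM in MOD and from 176 to 681 in XHT, with overlap. Its log2 fold change was 1.27 ± 0.59 (adjusted p = 0.140 by edgeR's quasi-likelihood test), and with the replicate number as a block it was called higher (1.25, adjusted p = 0.0188), with adjusted p-values of up to 0.408 over all alternatives. Scaling to total counts called Ripk1, Traf2 and Adam17 lower. Adam17, the protease that releases TNF and its receptors, stood at 91.8, 82.4 and 88.8 CPM in MOD and 47.7, 79.3 and 39.8 in XHT. Its log2 fold change was -0.66 with a 95% interval of -1.28 to -0.03 and edgeR's quasi-likelihood test gave an adjusted p of 0.0985; without XHT 2 it was called lower (adjusted p = 0.0209), and over all alternatives the adjusted p reached 0.267.

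Of 30 genes listed as known TNF targets, 25 were tested, of which 7 fell (28%, beside 16.1% of all tested genes) and 3 rose (12%, beside 12.4%), with a median log2 fold change of -0.90 beside -0.02. The share that rose was thus near that of the background. The list was chosen with earlier results of these data known, so these shares are not an independent test. Vcam1, a leukocyte adhesion molecule, stood at 64.5, 103 and 21.3 CPM in MOD and 9.17, 12.0 and 10.7 in XHT. Icam1, its counterpart for beta 2 integrins, fell from 42.5 ± 10.2 to 21.9 ± 5.64 CPM, and Ptgs2 (cyclooxygenase 2) from 21.3 ± 10.6 to 3.73 ± 2.45 CPM (SD, n = 3 each). Bcl2a1, a survival factor of leukocytes, stood at 15.1, 9.88 and 8.18 CPM in MOD and 1.06, 2.13 and 0.817 in XHT, 8.25-fold lower on average. Sele, an endothelial adhesion molecule, Cxcl10, a chemokine for activated T cells, and Lif, a cytokine of the interleukin 6 family, were the others that fell, by 2.66, 2.93 and 2.47 on the log2 scale; Lif was named after its values were seen.

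Among the 3 targets that rose, Sod2 (mitochondrial superoxide dismutase) went from 129 ± 60.0 to 397 ± 51.2 CPM and Cebpb, an inflammatory transcription factor, from 98.3 ± 3.46 to 199 ± 53.2 CPM (SD, n = 3 each). Cxcl11 stood at 1.21, 0.593 and 5.92 CPM in MOD and 24.6, 15.9 and 13.2 in XHT, whereas Cxcl10, a ligand of the same receptor CXCR3, stood at 14.6, 3.95 and 24.7 CPM in MOD and 1.40, 1.95 and 2.31 in XHT. The XHT libraries were thus the highest 3 for one chemokine and the lowest 3 for the other. The adjusted p by edgeR's quasi-likelihood test ran from 0.0109 for Bcl2a1 to 0.0392 for Cxcl11 over the 10 called targets. Leaving out MOD 1, MOD 2, XHT 1 or XHT 3 gave 2, 3, 0 and 1 targets lower and 0 higher. In these fits 2.55%, 3.87%, 0.0267% and 1.92% of all genes were lower, and 128, 227, 4 and 148 genes were higher. Leaving out MOD 3 gave 10 lower and 4 higher (beside 22.9% and 23.3% of all genes), and leaving out XHT 2 gave 9 lower and 2 higher (beside 14.2% and 9.81%). Markers of endothelium, which can carry Vcam1 and Sele, summed to 1371 to 2232 CPM in MOD and 1694 to 2097 in XHT, with 1 of 7 lower (Emcn) and 0 higher; the macrophage markers above moved with Bcl2a1, and their part was not tested.

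**Figure D5:**
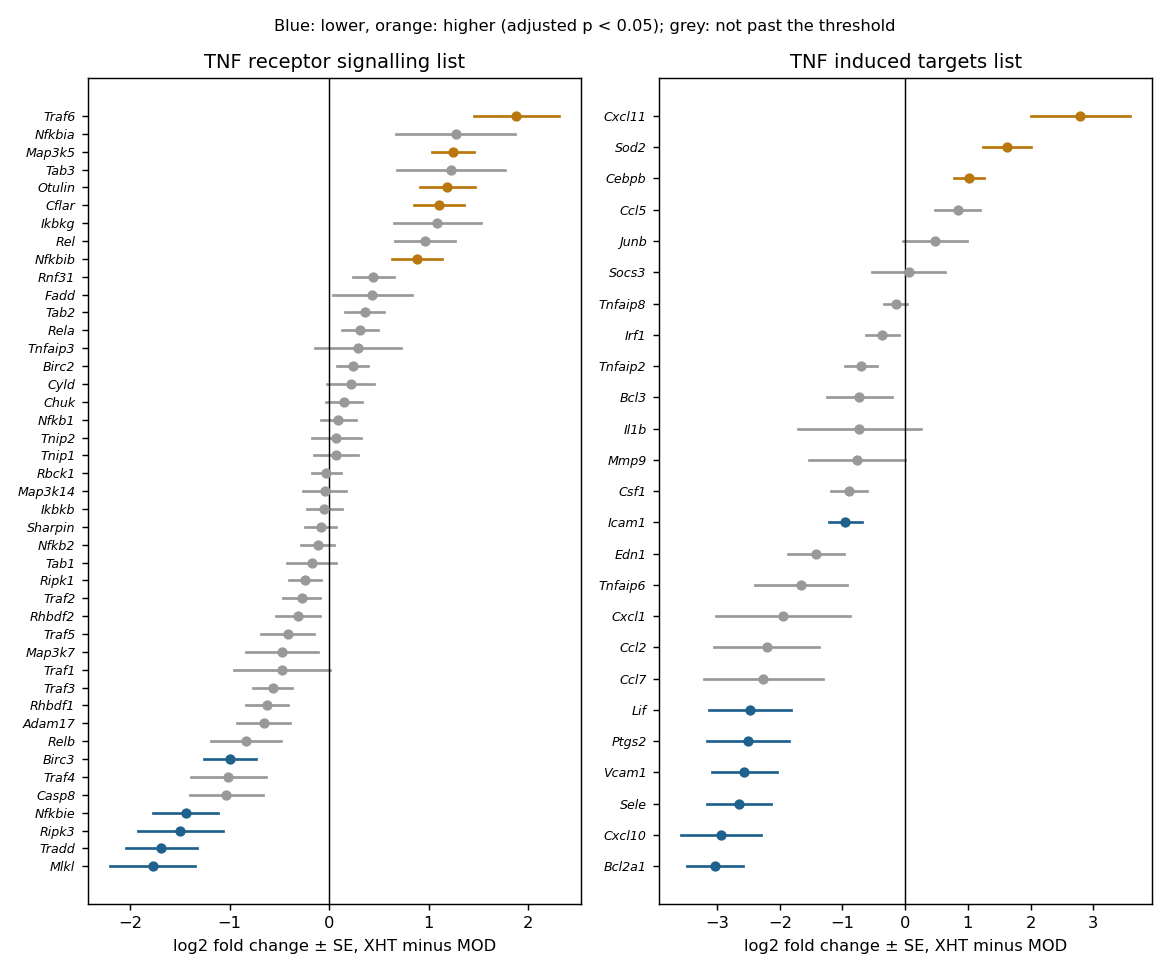
Log2 fold change with SE (XHT minus MOD, x axis) of the 43 signalling genes and the 25 tested TNF target genes, each sorted by value. The signalling genes centre near 0 with 5 called in each direction, and the targets lie mostly left of 0 with 7 called lower and 3 higher.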

How the data were processed

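RNA of rat myocardial tissue was sequenced in 6 libraries, 3 MOD and 3 XHT. Per the labels' protocols, poly(A) RNA was selected, the second cDNA strand was marked with dUTP and adapters carried molecular identifiers; the sources used here do not say whether these served to remove PCR copies. The authors deposited raw counts, FPKM, group means of normalised counts (a signal scale), gene lengths, and log2 fold changes and p-values of their own comparison. The tools named are DESeq2 1.16.1, featureCounts 1.5.0-p3, StringTie 1.3.3b and HISAT2 2.0.5, per the submitters' processing notes; no build or settings were found in the labels.

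The deposited counts of all genes were tested in R 4.3.3 with edgeR 4.0.16: filterByExpr (minimum count 10, minimum total 15), TMM, a robust quasi-likelihood fit without covariates, and Benjamini-Hochberg adjustment at 0.05. The procedure was tested on simulated data with the same spread for every gene and no outlying library. That test does not bear on the dependence of calls on single libraries. The SE is the log2 fold change over the square root of F, and intervals are 95%. Deposited FPKM, used for levels between genes, equal the counts over gene length times a constant per library. The 0-count limit covers counting error only. Library pairs differed by more than sampling noise (chi-square per degree of freedom at least 42.8).

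Members and lists were chosen with earlier results of these data known. Called members and 17 set members are given by library where they have counts; of the lists, up to 5 called genes per direction by lowest p and 10 set genes are named. Alternatives were DESeq2 size factors, total counts, no filter, DESeq2 1.42.0, the replicate number as a block and each library left out; edgeR's legacy quasi-likelihood fit was added after seeing the data.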

Additional observations from a re-analysis of the deposited data

How the results depend on the processing

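With DESeq2 size factors, edgeR's legacy quasi-likelihood fit (chosen after seeing the data), no filter on low counts and DESeq2's Wald test, the members called lower numbered 9 of 27, 9 of 27, 7 of 41 and 12 of 32, and 0 were called higher. Scaling to total counts called 925 genes higher and 4320 lower, 16 members lower, and 3 signalling genes higher and 14 lower. DESeq2's Wald test called 11 of the 30 listed targets lower, beside 16.6% of all genes to which it gave an adjusted p. Leaving out 1 library moved all genes called higher between 4 and 3487 and lower between 4 and 3421, members higher between 0 and 1 and lower between 0 and 14, signalling genes higher between 0 and 10 and lower between 0 and 8, and targets higher between 0 and 4 and lower between 0 and 10. With scaling to total counts the log2 fold change changed sign for Tnfrsf1b (-0.34), Nfkb1 (-0.31) and Tnfaip3 (-0.11). It also did so without XHT 3 for Tnfrsf1b (-0.23), Tnfrsf26 (0.050) and Tnfaip3 (-0.01), and without MOD 1 for Cd27 (0.12), Nfkb1 (-0.0074) and Tnfaip3 (-0.021); none of these was called. Leaving out 1 library moved Tnfrsf1b between -0.23 and 0.28, Tnfrsf26 between -0.44 and 0.050, Cd27 between -0.56 and 0.12, Nfkb1 between -0.0074 and 0.22, and Tnfaip3 between -0.021 and 0.72. The cause was not tested. With the replicate number as a block, 2101 genes were higher and 2309 lower (15.9% of all tested genes lower). In that fit 9 members were lower (7 of the 10, plus Tnfrsf11b and Tnfrsf25), as were 11 of the 25 tested targets. Same-numbered libraries had correlated deviations of -0.067, 0.247 and 0.119, and MOD 1 correlated best with XHT 2 (0.103), so the numbers were not taken as pairs. The 16 rows left untested had 46 counts or fewer over the 6 libraries.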
